A study of Mus musculus with 24 samples.

Results

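A group of 10 genes that mark microglia and the other macrophages of the brain were followed through 4 days of cortical development, comparing wild-type mouse embryos with conditional knockouts of Prdm16, a zinc-finger transcriptional regulator. The 10 genes (C1qa, C1qb, C1qc, P2ry12, Cx3cr1, Csf1r, Tmem119, Aif1, Trem2 and Mrc1) were taken by symbol from a table of 22529 genes, and all 10 passed the filter on low values. RNA came from the ventricular zone of the cortex, where radial glia, the stem cells of the cortex, line the ventricle. All embryos were of the C57BL/6 strain. Groups of wild-type (WT) and of conditional knockout (cKO) embryos were both taken on 4 embryonic days at steps from E11.5 through E13.5 and E15.5 to E17.5, with 3 libraries in each of the 8 groups, named A, B and C. The sources used here do not give the Cre driver of the knockout, the exons it removes, the number of embryos in a library or what the letters stand for. All p-values thus reflect only the spread among libraries, which may be technical. PolyA-selected RNA was sequenced to between 25639836 and 38879931 gene-assigned reads per library. Together the 10 genes held between 0.00327% and 0.0101% of those reads, and the lowest read count of a member in any library was 20.

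Microglia are the resident macrophages of brain tissue. They arise in the yolk sac, enter the brain early in embryonic life and from then on renew themselves there, while related macrophages settle in the meninges and around vessels at the borders of the brain. Csf1r, the receptor for the cytokines CSF1 and IL-34, is needed for the survival of both. C1qa, C1qb and C1qc encode the chains of C1q, which starts the classical complement cascade. P2ry12, a receptor for ADP, and Cx3cr1, the receptor for the neuronal chemokine CX3CL1, guide microglial processes, and Trem2 is a lipid-sensing receptor that signals through the adaptor Tyrobp. Aif1 encodes the actin-binding protein IBA1, and Tmem119 a membrane protein used to mark mature microglia. Mrc1, the mannose receptor CD206, marks the border macrophages and is low in mature microglia.

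The C1q genes lie next to each other on the minus strand of mouse chromosome 4 (GRCm38), C1qb from 136880129 to 136886187, C1qc from 136889804 to 136893065 and C1qa from 136895917 to 136898803. Promoters of 300 bases, 250 before and 50 after the transcription start, were found for 7 of the 10 genes in RefSeq (GRCm38.p6). Those of C1qb and C1qc are printed because the C1q genes moved together, that of P2ry12 because it had the largest rise with age, and that of Mrc1 because its pattern departed from that of the others. Capitals mark GAGGAA, a core bound by the macrophage factor PU.1 and by other ETS factors, or TTCCTC where the core lies on the other strand. Of all 32851 RefSeq promoters of this length, 28.3% held GAGGAA on either strand, and 5 of the 7 found here did. Mrc1 had 3 matches, C1qb and C1qc had 1 each, and these letters are not in the window of P2ry12. TGANTCA, a loose form of the AP-1 motif in which N is any base, was present in 7.81% of all promoters. It had a match in 1 of the 7, as TGAATCA in that of Trem2. The sequences, 5′ to 3′ along each gene, are C1qb at chr4:136886151-136886450 (minus strand), C1qc at chr4:136892865-136893164 (minus), P2ry12 at chr3:59262936-59263235 (minus) and Mrc1 at chr2:14229164-14229463 (plus).
C1qb: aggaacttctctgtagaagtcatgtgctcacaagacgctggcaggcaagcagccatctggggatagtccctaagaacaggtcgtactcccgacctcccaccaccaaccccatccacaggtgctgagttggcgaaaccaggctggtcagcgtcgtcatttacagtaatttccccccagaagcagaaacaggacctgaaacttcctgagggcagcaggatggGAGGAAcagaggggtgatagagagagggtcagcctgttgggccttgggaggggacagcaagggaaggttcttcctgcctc
C1qc: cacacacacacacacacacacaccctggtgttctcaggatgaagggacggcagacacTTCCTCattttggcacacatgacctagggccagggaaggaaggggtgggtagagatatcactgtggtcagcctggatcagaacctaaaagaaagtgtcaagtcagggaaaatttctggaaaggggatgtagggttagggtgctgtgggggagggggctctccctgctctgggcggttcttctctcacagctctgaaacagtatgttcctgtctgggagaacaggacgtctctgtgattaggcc
P2ry12: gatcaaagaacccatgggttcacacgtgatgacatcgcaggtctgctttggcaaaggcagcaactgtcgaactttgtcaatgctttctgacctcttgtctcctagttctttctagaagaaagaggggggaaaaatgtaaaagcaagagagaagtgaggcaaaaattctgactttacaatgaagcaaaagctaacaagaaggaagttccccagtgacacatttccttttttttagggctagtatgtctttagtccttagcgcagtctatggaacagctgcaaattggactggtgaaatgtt
Mrc1: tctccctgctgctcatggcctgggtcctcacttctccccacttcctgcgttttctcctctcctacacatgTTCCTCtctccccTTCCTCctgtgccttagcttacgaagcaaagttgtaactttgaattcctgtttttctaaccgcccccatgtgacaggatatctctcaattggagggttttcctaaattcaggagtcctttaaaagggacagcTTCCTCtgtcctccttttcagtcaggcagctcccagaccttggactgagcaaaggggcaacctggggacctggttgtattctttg

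The check of the targeted gene divided the days. Normalized read counts of Prdm16 were 2206, 2030 and 2134 in WT and 868, 1397 and 873 in cKO at E11.5, and 4772 to 6369 against 1784 to 1936 at E13.5, lower in cKO on both days (limma adjusted p = 8.1e-05 and 1.8e-06). At E15.5 the groups differed by -0.19 ± 0.14 on the log2 scale (limma adjusted p = 0.876). On the last day, E17.5, the gene ran opposite to the labels, with 2000 to 2070 in the libraries labelled WT and 2983 to 3866 in those labelled cKO. Of 11 radial glia genes 10 were also higher in the libraries labelled cKO. The reason for the Prdm16 values at E17.5 was not tested. Every direction at E17.5 below is thus between libraries labelled WT and cKO. In 5 groups (both genotypes at E11.5, both at E15.5, and cKO at E13.5) library C lay close to a weighted sum of A and B, and may not be an independent sample. All groups share 1 estimate of the spread, so this bears on the SE and p-values of every comparison, those at E17.5 included. The E15.5 WT libraries B and C held skin and meningeal transcripts. The 8 epidermal genes summed to 69.4 in library A, 15533 in B and 7748 in C, and 10 meningeal fibroblast genes to 2059, 122360 and 60437. Meningeal transcripts were also high on the early days. In WT 8 of the 10 meningeal fibroblast genes were lower at E17.5 than at E11.5 and 0 higher. Their median log2 fold change was -4.04, and 36.4% of all genes were lower. The part of this in the falls of Mrc1 and Tmem119 from E11.5 was not tested. For the 10 members, results that rest on those C libraries or on WT libraries B and C of E15.5 are given with and without them.

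The level of each gene was compared with that of the others only per kilobase of exon. C1qb had the highest normalized read count per kilobase in all 8 groups, from 151 ± 16.6 (SD, n = 3) in WT at E13.5 to 267 ± 53.3 in cKO at E17.5. C1qa followed it in all 8 groups, and the libraries of these neighbours overlapped in 7 of them. Trem2 was lowest in the 5 groups of E11.5, E13.5 and WT E15.5, at 6.17 to 11.5 per kilobase. In the other 3 groups Mrc1 was lowest (cKO at E15.5 and both genotypes at E17.5), at 6.36 ± 2.42 in WT at E17.5 and 8.16 ± 0.25 in cKO at E17.5, and there its libraries lay apart from those of Trem2. P2ry12 moved up the order, from the ninth place in WT and the eighth in cKO at E11.5 to the seventh at E13.5 and in WT at E15.5, the third in cKO at E15.5, and the sixth in WT and the fourth in cKO at E17.5.

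**Figure D1:**
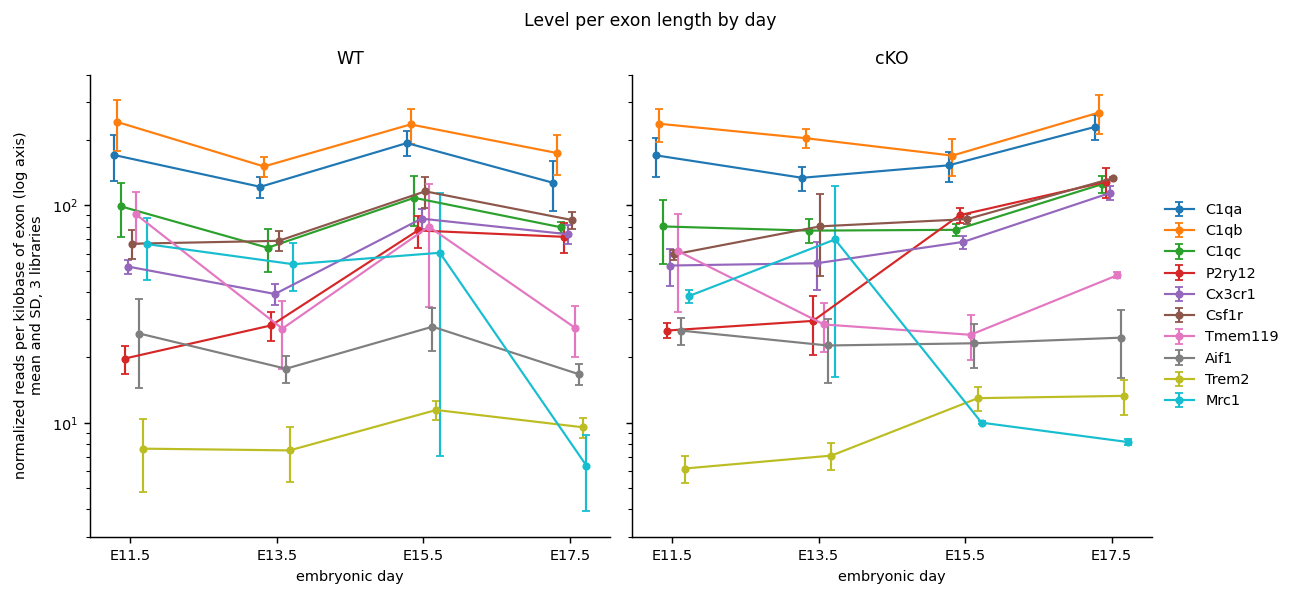
Mean normalized reads per kilobase of exon (log axis) of the 10 genes by embryonic day, WT left and cKO right, with bars for the SD of 3 libraries. C1qb and C1qa lie at the top on every day, P2ry12 climbs after E13.5, and Mrc1 drops below Trem2 by E17.5 in both genotypes.

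From E11.5 to E17.5 the microglial genes parted. P2ry12, the ADP receptor, rose in both genotypes, Cx3cr1 rose in both, and Mrc1 fell in both. In WT, 2 of the 10 genes were higher at E17.5 than at E11.5 (P2ry12 and Cx3cr1) and 2 lower (Tmem119 and Mrc1). Among all 17518 genes tested, 38.4% were called higher and 36.4% lower in that comparison by limma with Benjamini-Hochberg adjustment at 0.05, so the members' counts are below the background. In cKO, 5 were higher (C1qc, P2ry12, Cx3cr1, Csf1r and Trem2) and 1 lower (Mrc1), against a background of 35.2% higher and 32.5% lower. The median log2 fold change of the 10 genes was -0.36 in WT and 0.57 in cKO, beside medians over all genes of 0.02 and 0.03. Because Prdm16 runs opposite to the labels at E17.5, every comparison over time that ends on that day joins groups by label, and would join different genotypes if the E17.5 labels were exchanged. In bulk tissue a change in the number of macrophages and a change in RNA per cell cannot be told apart. Other cell types changed over the same days. All 7 neuron genes were higher at E17.5 than at E11.5 in both genotypes, 8 of 11 radial glia genes were lower in each, and the part of these shifts in the members' values was not tested.

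P2ry12 had the largest rise. Its normalized read counts were 42.8, 57.5 and 50.6 in WT at E11.5, 83.6, 67.9 and 62.9 at E13.5, 232, 166 and 188 at E15.5, then 188, 151 and 209 at E17.5. The libraries of E15.5 and E17.5 all lay above those of E11.5 and E13.5. From E13.5 to E15.5 it rose 2.70-fold in WT (log2 fold change 1.43 ± 0.20, adjusted p = 7.1e-06) and from E11.5 to E17.5 3.57-fold (1.84 ± 0.20, adjusted p = 7e-08). In cKO it read 61.5, 71.4 and 70.1 at E11.5, 53.4, 98.7 and 72.7 at E13.5, 221, 252 and 216 at E15.5, then 378, 273 and 330 at E17.5. The cKO libraries likewise separated after E13.5, with a step of 1.64 ± 0.20 to E15.5 (adjusted p = 6.7e-07) and 4.75-fold from E11.5 to E17.5. These calls held in all 19 alternatives run for each comparison. Exons of P2ry12 overlap those of Med12l on the opposite strand, and whether counting used the strand is not stated in those sources. Med12l changed by -1.51 ± 0.34 from E13.5 to E15.5 in WT (adjusted p = 0.0011) and by -0.14 ± 0.34 in cKO (adjusted p = 0.742).

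Cx3cr1 read 216, 247 and 244 in WT at E11.5, 190.3, 155 and 184 at E13.5, 354, 434 and 387 at E15.5, then 332, 299 and 365 at E17.5. The E13.5 libraries were the lowest and did not overlap those of any other WT day. It rose 2.21-fold from E13.5 to E15.5 (log2 fold change 1.15 ± 0.16, adjusted p = 8.3e-06), a call kept in all 19 alternatives. In cKO it read 189.5, 279.8 and 246 at E11.5, 179, 299 and 254 at E13.5, 311, 325 and 283 at E15.5, then 488, 557 and 495 at E17.5. Here the called rise came late, 1.68-fold from E15.5 to E17.5 (0.74 ± 0.16, adjusted p = 0.0018, also kept in all 19 alternatives), and the E17.5 libraries lay above all others. Without cKO library B of E13.5 limma also called the step from E13.5 to E15.5 (0.52, adjusted p = 0.012). Csf1r, the survival receptor, read 323 to 440 in the WT libraries of the first 2 days, then 583, 792 and 636 at E15.5 and 530.2, 446 and 509 at E17.5. In cKO it read 323 to 357 at E11.5, 272, 653 and 463 at E13.5, 519, 509 and 470.3 at E15.5, then 757, 779 and 778 at E17.5, with the E17.5 libraries above the rest. From E11.5 to E17.5 it rose 2.24-fold in cKO (1.17 ± 0.20, adjusted p = 4e-05). Csf1r overlaps Hmgxb3 on the opposite strand, including exons. Cx3cr1 likewise shares exons with Gm33858 on the opposite strand, which is not among the 22529 genes and could not be checked. Other genes overlap Cx3cr1 without sharing exons. Hmgxb3 had a mean of 1169 ± 236 in WT at E11.5 and 2056 ± 65.5 in WT at E17.5. The part of Hmgxb3 reads in the rise of Csf1r was not tested.

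**Figure D2:**
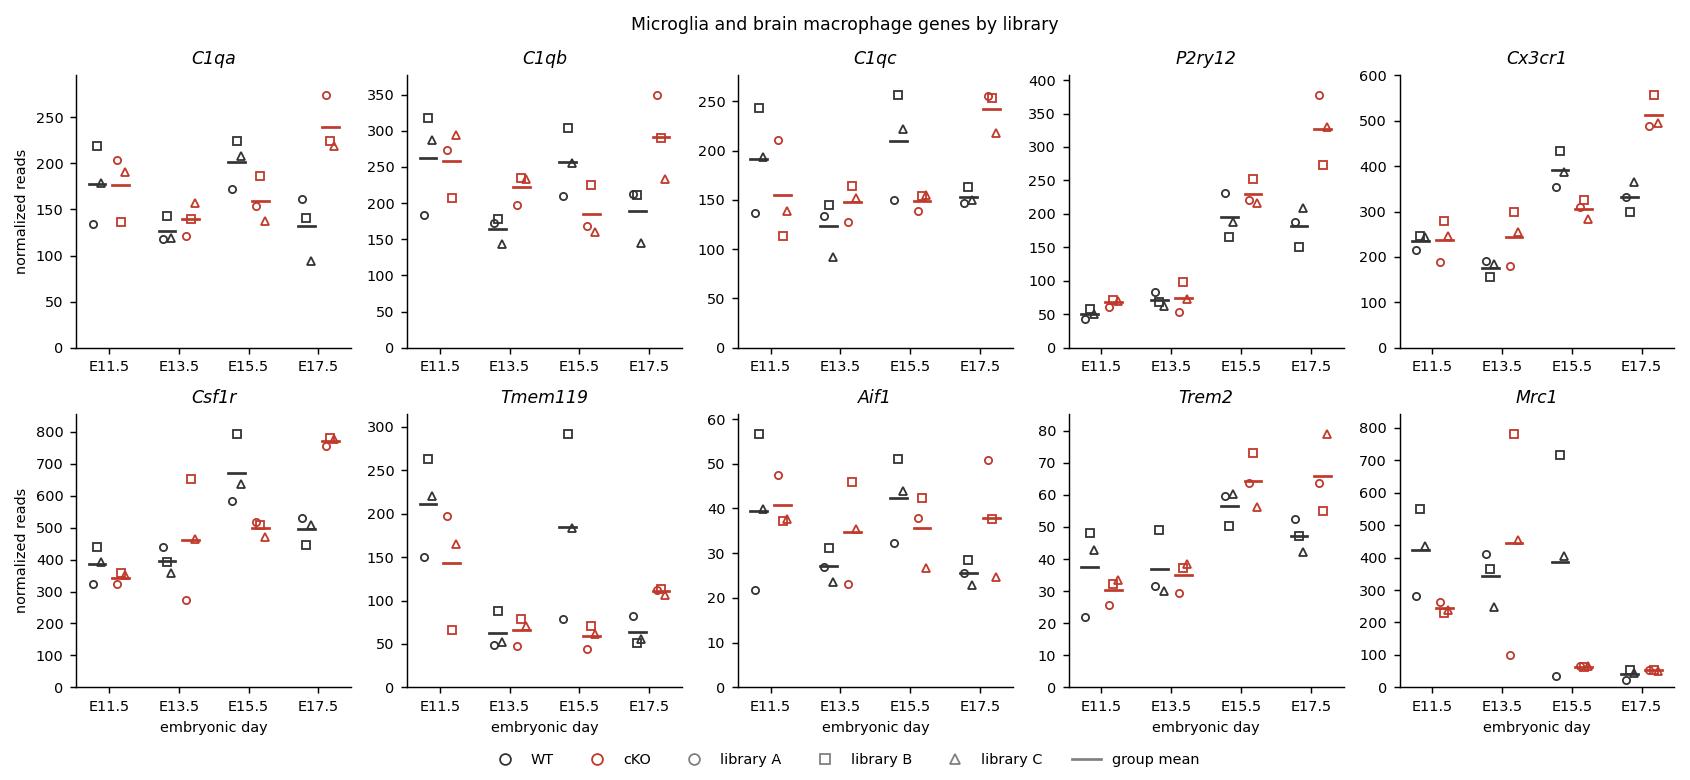
Normalized reads of the 10 genes in each library (circles A, squares B, triangles C; WT black, cKO red) by embryonic day, with a line at each group mean. At E17.5 the cKO libraries lie above the WT libraries for 8 of the 10 genes, while Aif1 and Mrc1 overlap; WT library B at E15.5 stands apart for Tmem119 and Mrc1.

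Between E11.5 and E13.5 in WT, 1 of the 10 genes was higher (P2ry12) and 4 were lower (C1qb, C1qc, Cx3cr1 and Tmem119), where 29.6% of all genes tested were called higher and 25.7% lower. P2ry12 was called in 7 of the 19 alternatives, and without the 5 C libraries Tmem119 was the 1 gene called. In cKO 0 of 10 were called by limma between these days, against 15.5% higher and 9.62% lower among all genes. Tmem119 alone was under 0.05 without adjustment, edgeR called 0 and DESeq2 called 1. The step from E13.5 to E15.5 raised 8 of 10 genes in WT (all but Aif1 and Mrc1) and lowered 0, beside a background of 24.2% higher and 22.8% lower, and no gene was lower without adjustment. The median log2 fold change of the 10 was 0.71, and for 8 genes the libraries of E15.5 all lay above those of E13.5. How many of all genes were separated in this way was not counted. In cKO 2 genes were higher (P2ry12 and Trem2) and 1 lower (Mrc1) over the same step, where 31.9% of all genes were higher and 29.9% lower. The Mrc1 call was lost without the 5 C libraries (log2 fold change -2.12, adjusted p = 0.101) and without cKO library B of E13.5 (-1.72, adjusted p = 0.066).

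That WT step leans on the libraries of E15.5 that hold other tissue. Without the E15.5 WT libraries B and C, P2ry12 (log2 fold change 1.69) and Cx3cr1 (1.01) were still called higher, Mrc1 was called lower (-3.17, adjusted p = 0.0015) and the other 7 were not called. Without the 5 C libraries P2ry12, Cx3cr1 and Csf1r were called. Between E15.5 and E17.5 in WT 3 genes were lower (C1qa, Tmem119 and Mrc1) and 0 higher, against 17.6% higher and 14.6% lower among all genes. Without the E15.5 WT libraries B and C limma called 0 of them, 0 were under 0.05 without adjustment, and Mrc1 turned to 0.08. In cKO 5 genes were higher at E17.5 than at E15.5 (the 3 C1q genes, Cx3cr1 and Csf1r) and 0 lower, with a background of 15.4% and 13.6%. Without the 5 C libraries 1 of these, Cx3cr1, was called.

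The C1q genes were read in similar amounts. Within a library the C1qa read count was 0.596 to 0.935 times that of C1qb, with a median of 0.74, and C1qc was 0.474 to 1.04 times C1qb. C1qa read 135, 219 and 179 in WT at E11.5, 118, 143 and 119 at E13.5, 172, 224 and 208 at E15.5, then 161, 140.2 and 94.6 at E17.5. The WT libraries of E15.5 lay above those of E13.5 and E17.5 and overlapped those of E11.5. In cKO it read 204, 136 and 191 at E11.5, 121.5, 139.8 and 157 at E13.5, 154, 186 and 137 at E15.5, then 274, 224 and 219 at E17.5. The cKO libraries of E17.5 were above all other cKO libraries. From E15.5 to E17.5 the cKO log2 fold changes were 0.59 ± 0.21 for C1qa (adjusted p = 0.041), 0.65 ± 0.22 for C1qb (0.029) and 0.69 ± 0.24 for C1qc (0.032). All 3 calls were lost when cKO library A or C of E15.5, or cKO library A or B of E17.5, was left out.

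Tmem119 and Aif1 did not follow the receptors. Tmem119 read 150.1, 263 and 220 in WT at E11.5, and 49.0, 87.8 and 51.7 at E13.5, with no overlap. It fell to 0.298 of its level on the fitted scale (log2 fold change -1.75 ± 0.41, adjusted p = 0.0015), a call kept in all 19 alternatives. At E15.5 it read 79.1 in WT library A, 291 in B and 184 in C, so that the libraries with meningeal transcripts were the high ones. At E17.5 it read 82.3, 51.5 and 55.8 in WT. In cKO it read 197, 66.6 and 166 at E11.5, 47.1 to 79.2 at E13.5, 44.1 to 71.1 at E15.5, then 106 to 113 at E17.5. Aif1 ranged from 21.8 in WT library A at E11.5 to 56.6 in WT library B at E11.5, within 1 group, and did not pass the test in any comparison. Trem2, the lipid receptor, read 21.8 to 49.1 in the libraries of the first 2 days and 42.2 to 78.9 in the later ones, with a small overlap between the 2 spans. In cKO it rose 1.82-fold from E13.5 to E15.5 (0.86 ± 0.26, adjusted p = 0.0065). Its partner Tyrobp had a log2 fold change of -0.27 over that step and did not pass.

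Mrc1 followed a course of its own. It read 281, 551 and 437 in WT at E11.5 and 412, 364 and 249 at E13.5. At E15.5 it read 36.2 in WT library A, 718 in B and 404 in C, and at E17.5 23.5, 53.7 and 44.4. WT library A at E15.5 thus lay with the E17.5 libraries, and B and C with those of the early days. In cKO it read 262.5, 229 and 239 at E11.5, 99.5, 780.1 and 454 at E13.5, 64.6, 62.4 and 64.4 at E15.5, then 53.6, 52.0 and 50.4 at E17.5. The cKO libraries of E15.5 and E17.5 all lay below the earlier ones. Mrc1 fell by 3.38 ± 0.75 on the log2 scale from E11.5 to E17.5 in WT (adjusted p = 0.00042, kept in all 19 alternatives) and by 2.21 ± 0.75 in cKO (adjusted p = 0.014, and 0.053 without the 5 C libraries). Within a library the ratio of Mrc1 to Csf1r reads was 0.365 to 1.25 at E11.5 and E13.5. It was 0.0444 to 0.137 in the E15.5 and E17.5 libraries, apart from 0.906 in WT library B and 0.635 in WT library C of E15.5.

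Other genes of border macrophages were counted over the 4 comparisons in which Mrc1 was called lower. Of 10 tested, 8 were lower at E15.5 than at E13.5 in cKO, where 29.9% of all genes were, and 7 at E17.5 than at E11.5 in WT, where 36.4% were. In cKO 5 were lower at E17.5 than at E11.5, against 32.5% of all genes, and in WT 2 were lower at E17.5 than at E15.5, against 14.6%. That last count includes WT libraries B and C of E15.5 and is not given without them. Without these libraries the Mrc1 change in that step turned to 0.08. Lyve1, a hyaluronan receptor, fell by 4.44 ± 1.06 from E13.5 to E15.5 in cKO (adjusted p = 0.0012), Stab1, a scavenger receptor, by 1.39 ± 0.34, and Pf4, the chemokine CXCL4, by 3.65 ± 0.90. Without the 5 C libraries 3 of the 10 were lower in that cKO step. Of 10 meningeal fibroblast genes 9 were lower in it, with a median of -4.84, and their summed level was 18338 to 43124 in the cKO libraries of E13.5 and 1718 to 2655 at E15.5. In WT at E15.5 the border macrophage gene F13a1 read 10.8 in library A, 773 in B and 385 in C, the order seen for Mrc1. How far the meningeal tissue in a library accounts for its Mrc1 was not tested.

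**Figure D3:**
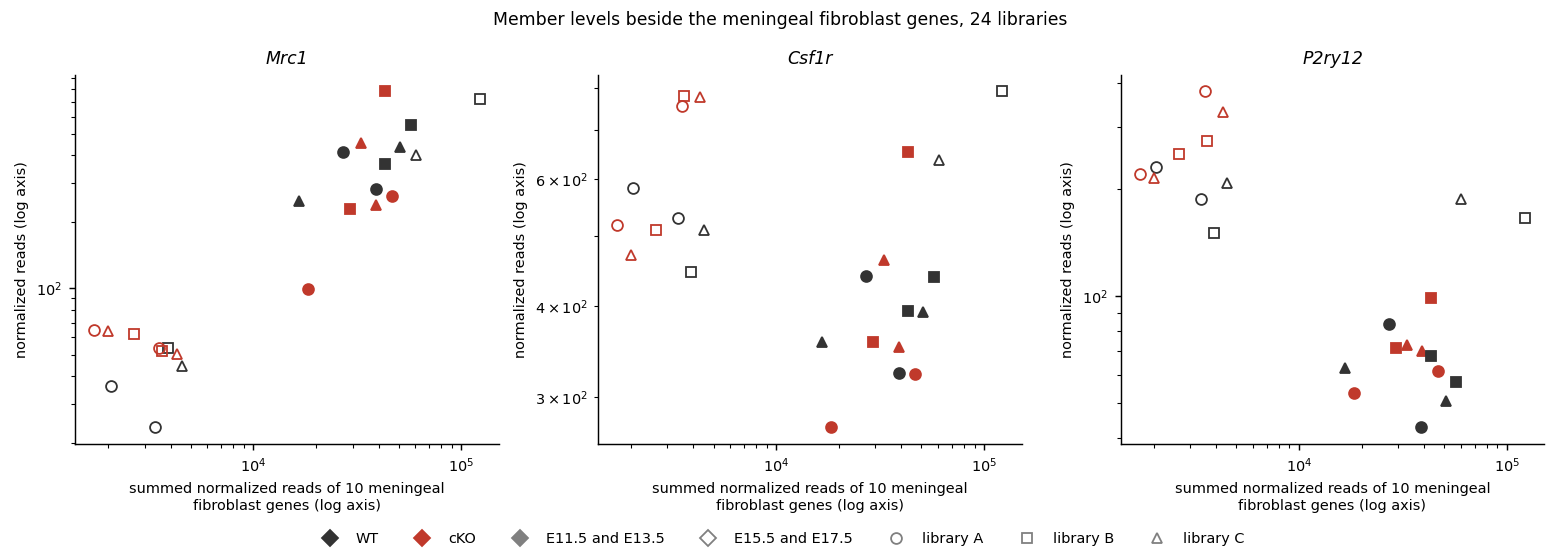
Normalized reads of Mrc1, Csf1r and P2ry12 (log axes) against the summed normalized reads of 10 meningeal fibroblast genes in the 24 libraries (filled, E11.5 and E13.5; open, E15.5 and E17.5; WT black, cKO red). Mrc1 is high where the meningeal sum is high, including WT libraries B and C of E15.5, while P2ry12 in those 2 libraries stays with the other late libraries.

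Likeness over the 24 libraries was taken as the Pearson correlation of log2 values, as a description. Each gene's correlation with the mean of the other members was 0.41 to 0.87 for 9 of them, highest for C1qc and C1qa, and -0.10 for Mrc1. Of 16185 genes, Cd53, a tetraspanin of leukocytes, was most like the members' mean (r = 0.91), followed by Pld4 (0.84), Unc93b1, the chaperone of endosomal Toll-like receptors (0.83), Ctsh (0.81), Mbnl2 (0.81), Lgmn (0.80), Pmp22 (0.80), Cd9 (0.79), Myl4 (0.79) and Evi2a (0.79). These values share the libraries' day, depth and tissue content. A search for the genes most like Mrc1 was added after its values were seen. In order they were F13a1 (r = 0.98), Elf4 (0.96), Aebp1 (0.96), Svep1 (0.96), Aqp1 (0.96), Lyve1 (0.95), Islr (0.95), Col5a2 (0.95) and Ctsk (0.95). F13a1 and Lyve1 are on the list of border macrophage genes. Col3a1 and Col1a2, on the meningeal fibroblast list, ranked 11 and 12 (both 0.94).

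The genotypes were compared day by day. At E11.5 limma called 0 of 10 genes, where 0.611% of all genes were higher and 2.52% lower in cKO. P2ry12 alone was under 0.05 without adjustment (log2 fold change 0.43 ± 0.20, adjusted p = 0.376), and edgeR and DESeq2 called 0. At E13.5 limma called 0, against 9.79% higher and 12.5% lower among all genes. Cx3cr1 was nearest, at 0.44 ± 0.16 (adjusted p = 0.058), and edgeR and DESeq2 each called 1 gene, this one. At E15.5 limma called 0 beside 0.833% higher and 1.68% lower, with 4 genes lower under 0.05 without adjustment (C1qb, Cx3cr1, Tmem119 and Mrc1), and edgeR and DESeq2 each called 2, Tmem119 and Mrc1. Both were higher in B and C than in A of the WT group. Without B and C of that group 0 were called and 0 were under 0.05 without adjustment.

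At E17.5 the C1q genes and the receptors P2ry12, Cx3cr1 and Csf1r were higher in the libraries labelled cKO. Of 10 genes 6 were called higher and 0 lower, where 18.6% of all genes tested were called higher and 21.8% lower. No member was lower at an unadjusted p under 0.05, all 10 had a positive fold change, and their median was 0.64 beside -0.04 for all genes. The libraries of 8 genes did not overlap, but the share of all genes without overlap was not counted. The differences that passed were between 1.53-fold and 1.84-fold, for the complement chains and the receptors alike.

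C1qa showed the largest difference, at 161, 140.2 and 94.6 in the libraries labelled WT and 274, 224 and 219 in those labelled cKO, every cKO value being the higher. Its log2 fold change was 0.88 ± 0.21 (adjusted p = 0.0021). C1qb read 213, 211 and 145 against 349.8, 289 and 234, without overlap (0.62 ± 0.22, adjusted p = 0.028). C1qc read 146, 163 and 150.4 against 255, 253.7 and 218, a wider gap between the groups than for C1qb (0.65 ± 0.24, adjusted p = 0.032). P2ry12 read 188, 151 and 209 against 378, 273 and 330 (0.84 ± 0.20, adjusted p = 0.0023), Cx3cr1 rose by 0.63 ± 0.16 (adjusted p = 0.004) and Csf1r by 0.64 ± 0.20 (adjusted p = 0.015). The calls of C1qa, P2ry12 and Cx3cr1 held in all 19 alternatives, and that of Csf1r in 18, being lost without WT library B of E17.5 (adjusted p = 0.063). C1qb was not called without the 5 C libraries, nor without WT library C or cKO library A or B of E17.5 (adjusted p up to 0.162). C1qc was lost in 7 alternatives, among them those without any single WT library of E17.5 and without cKO library A or B (adjusted p up to 0.093).

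**Figure D4:**
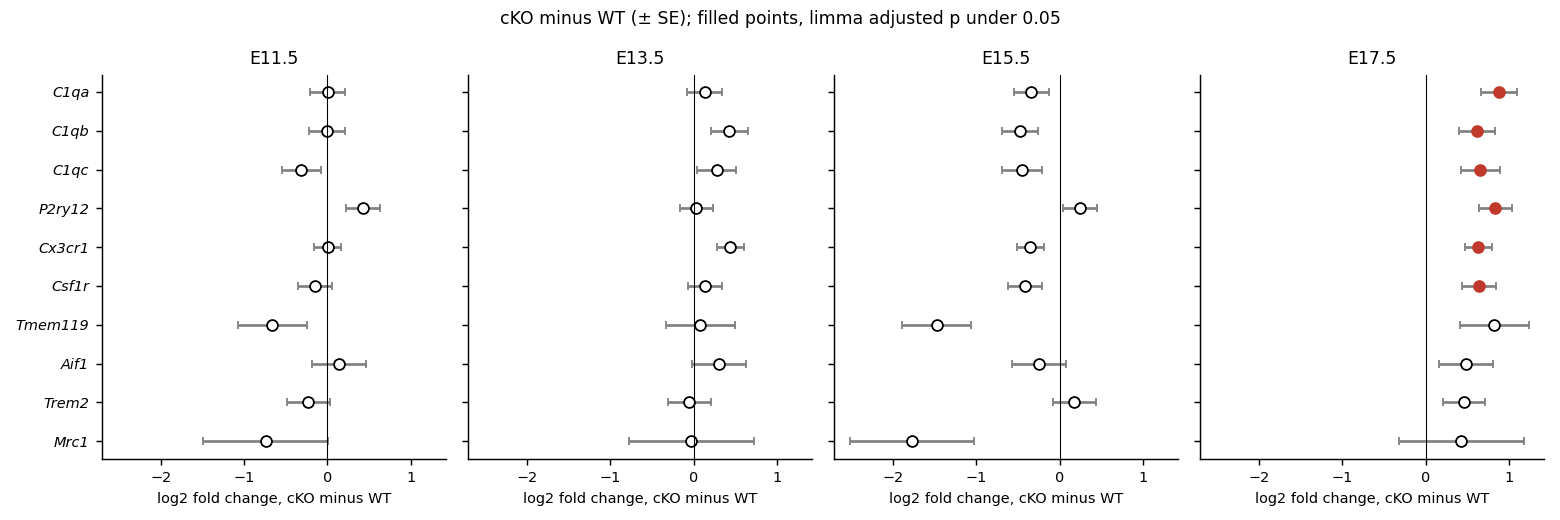
Log2 fold change, cKO minus WT, of the 10 genes on each day with its SE (limma, 3 libraries per group); filled points have an adjusted p under 0.05. Of the 40 values 6 are filled, all at E17.5 and between 0.62 and 0.88.

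The remaining members did not pass at E17.5. Tmem119 read 82.3, 51.5 and 55.8 against 112, 113 and 106 (0.83 ± 0.41, adjusted p = 0.119), without overlap, and Trem2 read 52.4, 47.1 and 42.2 against 63.6, 55.0 and 78.9 (0.46 ± 0.26, adjusted p = 0.164), also apart. Aif1 (0.49 ± 0.32) and Mrc1 (0.43 ± 0.75) overlapped between the groups. Med12l, which overlaps P2ry12, had a fold change of -0.01 ± 0.34, and Hmgxb3, which overlaps Csf1r, of -0.23 ± 0.20.

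Other microglial genes were also higher. Of 24 on that list 9 were higher and 0 lower, where 18.6% of all genes tested were higher and 21.8% lower. Their median was 0.54, and 8 were higher without the 5 C libraries. Ctss, the lysosomal protease cathepsin S, rose from 188 ± 6.49 to 357 ± 83.1 (0.90 ± 0.15, adjusted p = 8.3e-05). Lgmn, the lysosomal protease legumain, rose by 0.42 ± 0.08. Sall1 rose by 1.55 ± 0.14, at 1627 ± 203 and 4745 ± 307, but this transcription factor is also made by neural progenitors. Named after their values were seen, the microglial lectin Siglech (0.83 ± 0.32), the selectin ligand Selplg (1.06 ± 0.31) and the integrin subunit Itgam (1.16 ± 0.38) rose as well. Of 8 macrophage transcription factors 2 were higher and 2 lower, shares near those of all genes. Spi1, which encodes PU.1, rose from 18.6 ± 5.35 to 34.2 ± 5.44 (0.87 ± 0.26, adjusted p = 0.012), while Mef2c, which neurons also make, fell by 2.39 ± 0.29. Of 10 border macrophage genes 1 was higher, a share below that of all genes. It was the endocytic adaptor Dab2 (1.95 ± 0.56).

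Of 13 ligands and partners of the members tested at E17.5, 3 were higher and 2 lower in the libraries labelled cKO, shares near the 18.6% and 21.8% of all genes. For Csf1, the cytokine bound by Csf1r, the WT libraries gave 451, 342 and 344 and the cKO libraries 859.5, 861 and 807, every cKO library being the higher. It rose by 1.16 ± 0.11 (adjusted p = 4.9e-08). Itgav, an integrin subunit that takes part in the activation of TGF-β, rose by 1.34 ± 0.12, and Tgfbr1, a TGF-β receptor, fell by 0.88 ± 0.10. Cx3cl1, the ligand of Cx3cr1, named after its values were seen, had a mean of 626 ± 80.4 in WT against 285 ± 49.7 in cKO (-1.14 ± 0.21, adjusted p = 0.00023). Of 12 complement genes tested 1 was higher, Serping1, the C1 inhibitor (0.75 ± 0.12), and 1 lower, the regulator Cd55 (-1.85 ± 0.22). Of 14 genes of macrophage activation in the table, 5 (Il1b, Tnf, Il6, Ccl4 and Itgax) were under 10 in all 24 libraries. Of the 9 tested 1 was called at E17.5, Lpl, lower by 1.86 ± 0.10. Lpl had the highest mean of that list in WT at E17.5, 1381 ± 146, followed by Cd83 at 81.9 ± 23.7. Which cells made Lpl was not tested. Of 5 lymphocyte genes, 4 were under 10 in all 24 libraries.

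**Figure D5:**
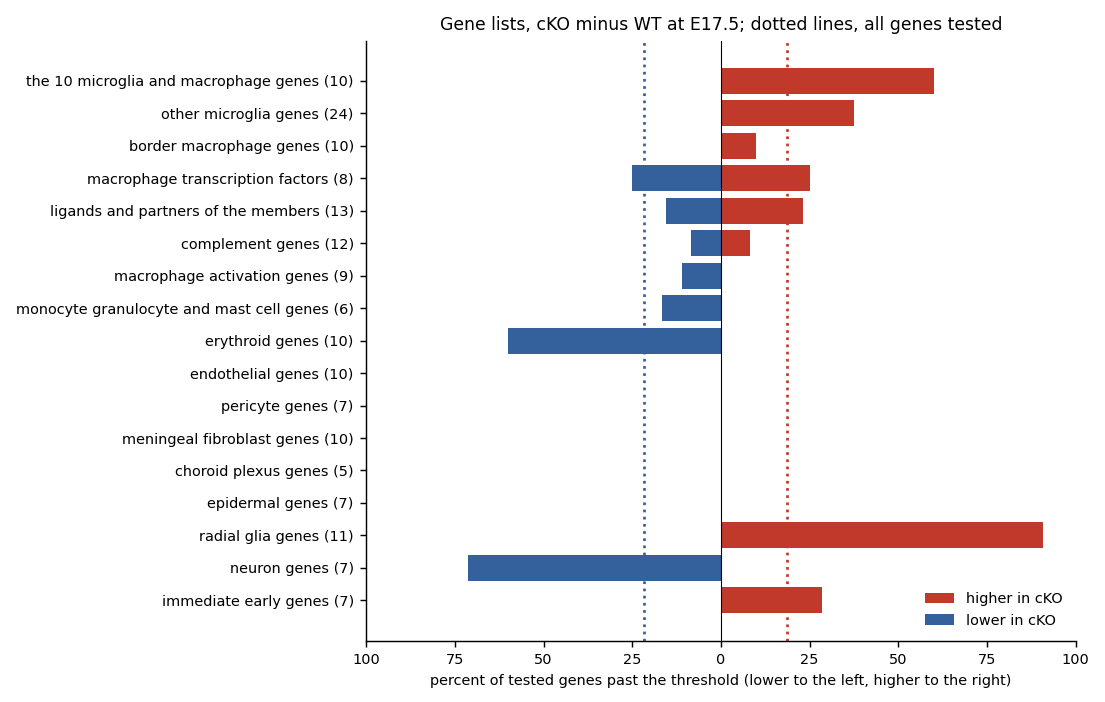
Percent of the tested genes of each list (number tested in parentheses) called higher (red, right) or lower (blue, left) in the libraries labelled cKO at E17.5, with dotted lines at the shares among all genes, 18.6% and 21.8%. Among the lists, the radial glia genes have the largest share higher and the neuron genes the largest share lower.

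The rest of the tissue differed between the same libraries. Of 11 radial glia genes 10 were higher, and their summed normalized reads were 39308 to 44006 in the libraries labelled WT and 131666 to 148215 in those labelled cKO. Of 7 neuron genes 5 were lower, at sums of 389832 to 416386 and 188464 to 218525. Of 10 erythroid genes 6 were lower, at 10699 to 22683 and 4221 to 4650. By contrast the summed ranges overlapped for 10 endothelial genes (8336 to 9172 and 8668 to 9609), 7 pericyte genes (6936 to 7906 and 6619 to 7529) and 10 meningeal fibroblast genes (3373 to 4516 and 3531 to 4294). Of 6 monocyte, granulocyte and mast cell genes tested 1 was lower, the stem cell factor receptor Kit (-1.31 ± 0.19). Kit had a mean of 2898 ± 152 in WT at E17.5, and the next gene of that list, S100a9, 8.82 ± 1.21. Which cells made Kit was not tested. The part of the neuron and progenitor shift in the members' difference was not tested.

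The effect at E17.5 was also set against that of the other days. The joint F test over days called 6 of 10 genes (C1qa, C1qb, C1qc, Cx3cr1, Csf1r and Tmem119), while it called 32.2% of all genes tested. Prdm16 itself was called (adjusted p = 2.5e-07). The F test uses the labels of E17.5, to which Prdm16 ran opposite, and was not run with them exchanged. From E15.5 to E17.5 the cKO effect moved by 1.09 ± 0.31 for C1qb (adjusted p = 0.011), by 0.98 ± 0.23 for Cx3cr1 (adjusted p = 0.003) and by 2.30 ± 0.58 for Tmem119 (adjusted p = 0.0051). Without WT libraries B and C of E15.5 limma called 0 of the 10 in the F test, with 6 under 0.05 without adjustment, and without the 5 C libraries it called 0, with 3 under 0.05. The differences themselves kept their direction in these alternatives. From E15.5 to E17.5 they were 0.82 for C1qb, 0.84 for Cx3cr1 and 1.27 for Tmem119 without WT libraries B and C, with adjusted p of 0.165, 0.061 and 0.179 by limma. Without the 5 C libraries they were 0.99, 0.93 and 2.25, and of these 3 Cx3cr1 was called (adjusted p = 0.048). Without those 5 and WT library B of E15.5 they were 0.73, 0.78 and 1.32, and none of the 3 was called (adjusted p = 0.373, 0.205 and 0.308). These alternatives also have fewer libraries.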

How the data were processed

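The 24 libraries were made from polyA-selected RNA with a stranded kit and sequenced, per the labels' protocols. The submitters' processing notes name cutadapt 1.6, STAR 2.5.0a, HTSeq 0.5.3, DESeq 1.22.1 and mm10 (GRCm38), with no strand setting for the counting. The authors deposited a normalized signal per gene, reads divided by 1 size factor per library. Whole reads were recovered from it for 100% of values within 0.01, and 22411 of 22529 gene IDs matched the annotation.

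Genes with a value of at least 10 in at least 3 libraries (17518) were tested on log2(value + 1) with limma 3.58.1 in R 4.3.3, with 1 mean per group, all 24 libraries in 1 fit, a mean-variance trend and Benjamini-Hochberg adjustment over all genes at 0.05. Fold changes of low genes are understated on this scale. An F test asked whether the cKO effect differed between days. The fit was also run on simulated data, with independent libraries and the same dispersion for all genes. That run does not cover libraries that are sums of others or that hold other tissue.

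The recovered reads were also tested with edgeR 4.0.16 and DESeq2 1.42.0. Other alternatives were pseudocounts of 0.5 and 5, no filter, a mean of at least 50, TMM factors, no trend, only the groups compared, a replicate block and each library left out. Leaving out the libraries that stand apart was chosen after seeing the data. The fit assumes that a group left with 1 library varies like the others.

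The 10 genes and the lists were chosen with earlier results of these data known. The text names all members, Prdm16, up to 3 genes of each list that passed with the smallest p, and the 10 genes most like the members' mean. Genes named outside this rule, such as Cx3cl1, Siglech, Selplg, Itgam, Med12l, Hmgxb3, Tyrobp, F13a1 and the lists' genes under the filter, were chosen after their values were seen or to check an overlap. The values of 1 gene on these lists are not reported here.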

Additional observations from a re-analysis of the deposited data

Results flagged for a closer look

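For 6 genes the cKO effect differed between the 4 days by limma's F test with Benjamini-Hochberg adjustment, which called 32.2% of all genes tested. The adjusted p was 0.00935 for Cx3cr1, 0.0192 for C1qa, 0.0214 for Tmem119, 0.0336 for Csf1r, 0.0339 for C1qb and 0.0385 for C1qc. For each the difference between libraries labelled cKO and WT was positive at E17.5 and negative at E15.5. If the E17.5 labels were exchanged, the sign at E17.5 would reverse, and the F test was not run that way. By the same test none of the 6 was called without WT libraries B and C of E15.5 (6 of the 10 members under 0.05 unadjusted), or without the 5 C libraries that lie close to a sum of A and B (3 of 10).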

How the results depend on the processing

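Of 52 called results for single members, 17 were called in every alternative. Leaving out each library in turn gave these ranges of members called: WT E13.5 against E11.5 1 to 6, E15.5 against E13.5 3 to 8, E17.5 against E15.5 0 to 3, E17.5 against E11.5 4 to 7; cKO in the same order 0 to 1, 3 to 4, 1 to 3 and 5 to 7; cKO against WT 0 to 0 at E11.5, 0 to 1 at E13.5, 0 to 2 at E15.5 and 4 to 6 at E17.5; the F test 2 to 7. Without the 5 C libraries the count was 1 for WT E13.5 against E11.5, 3 for WT E15.5 against E13.5, 0 for WT E17.5 against E15.5 (3 under 0.05 unadjusted), 1 for cKO E17.5 against E15.5, 4 for cKO against WT at E17.5 and 0 for the F test (3 unadjusted). Leaving out WT library B of E15.5 as well gave 1, 3, 0 (0 unadjusted), 1, 4 and 0 (0 unadjusted). Without WT libraries B and C of E15.5 the counts were 3 for WT E15.5 against E13.5, 0 for WT E17.5 against E15.5 (0 unadjusted), 1 for cKO E13.5 against E11.5 and 0 for the F test (6 unadjusted), and the Mrc1 change from WT E15.5 to E17.5 reversed to 0.0827, as it did without the 5 C libraries and WT library B. With only the groups compared, 3 were called in WT E13.5 against E11.5. In cKO against WT at E13.5 a mean of at least 50, the replicate block, edgeR and DESeq2 each called 1, at E15.5 edgeR and DESeq2 each called 2, and DESeq2 called 1 in cKO E13.5 against E11.5. The cause of these changes was not tested. Same-letter libraries had correlations of their deviations from -0.583 to 0.207. Each group has 3 libraries, and in 5 groups C lies close to a weighted sum of A and B. These correlations thus cannot decide whether the letters pair the libraries. The replicate block left 6 called at E17.5. The low read counts of Aif1 and Trem2, down to 20 in a library, limit what can be seen for them.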
